A study of Mus musculus with 18 samples.

Results

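The collagen genes of the mouse left ventricle are described here, taken as every gene whose symbol in the GENCODE M21 annotation is Col, a number, the letter a and a number, with at least 10 counts in 3 or more of the 18 libraries. There were 44 such symbols, of which 38 met the count rule, out of 15914 genes that met it and 49315 genes in the tables. The 38 comprised 9 fibrillar, 6 basement membrane, 2 network, 7 FACIT, 5 beaded filament, 2 multiplexin and 4 transmembrane collagens, and 3 placed under anchoring and other types. The 6 that missed the rule (Col2a1, Col6a4, Col9a1, Col10a1, Col19a1 and Col24a1) reached no more than 8 counts in any library. All 38 passed the filter of the test, but Col9a2, Col11a1 and Col28a1 met the count rule through KO libraries alone, and Col17a1 and Col25a1 through WT libraries alone, so that a large difference in these 5 is partly set by the rule.

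All libraries came from male mice (129SVE background), from the mid wall of the left ventricle. There were 6 groups of 3 libraries: wild type (WT) and mice labelled as knockouts (KO) of MLP, the muscle LIM protein encoded by Csrp3, each at 3, 6 and 10 weeks of age. MLP sits at the Z-disc of the cardiomyocyte, and mice without it are an established model of dilated cardiomyopathy. The labels name no allele, promoter or Cre driver and no treatment.

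Library totals ran from 14980968 to 23001047 counts. Mitochondrially encoded genes took 11.0% to 16.8% of counts in WT and 7.5% to 10.9% in KO, and with these genes left out of the fit 17, 30 and 25 collagens were called at 3, 6 and 10 weeks. The labels do not say whether the 3 libraries of a group came from separate animals, so p-values measure the spread between these libraries. Csrp3, the targeted gene, was not lower in the libraries labelled KO. Its level was 951 to 1111 CPM (counts scaled to a common library total) in WT and 1134 to 2703 CPM in KO at 3 weeks, 1230 to 1486 and 1792 to 2483 CPM at 6 weeks, and 1001 to 1124 and 1501 to 3416 CPM at 10 weeks. The libraries labelled KO thus lay wholly above WT at each age, and by edgeR the gene was called higher in them at 10 weeks (log2 difference 1.29, SE 0.30, adjusted p = 0.0041; 0.80 with 0.081 at 3 weeks and 0.57 with 0.19 at 6 weeks). The part of the gene that was targeted is not given in the sources used here, so whole-gene counts do not check the genotype, which rests on the labels. Myl4, a myosin light chain of the atrium, was over 10 times the median of all libraries in replicate 3 of KO at 3 weeks, replicate 3 of KO at 6 weeks and replicate 1 of KO at 10 weeks. Without those 3 libraries, 20, 29 and 22 collagens passed the test at 3, 6 and 10 weeks, against 18, 30 and 25 with them.

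Collagens are secreted proteins of 3 chains wound into a triple helix. Type I and type III form the main fibrils of the heart's interstitium, with type V inside them. FACIT collagens such as types XII and XIV decorate fibril surfaces, type IV forms the sheet of the basement membrane around cardiomyocytes and vessels, type VI forms beaded microfibrils beside it, and type VIII forms short-chain networks. Cardiac fibroblasts are the main source of the fibrillar types, and endothelial and mural cells make much of the type IV collagen. In bulk tissue, a change in the number of cells of one type and a change in RNA per cell cannot be told apart.

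Levels are given as CPM after scaling of the library sizes by the trimmed mean of M-values (TMM). Differences are log2 fold changes, with standard errors (SE), from 1 edgeR quasi-likelihood fit to all libraries. A gene was called when its p, adjusted by the Benjamini-Hochberg method over all 15778 genes tested, was under 0.05; every adjusted p below is from that fit. A level is compared between genes per kilobase of exon length, unless unscaled values are named. The length is that of all annotated exons of a gene merged, so ranks, shares and ratios between genes depend on it.

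More collagen mRNA was counted in KO than in WT at each age. The summed level of the 38 genes was 4110, 4215 and 4694 CPM in the WT libraries (lowest, median and highest) and 5872, 6790 and 6901 CPM in KO at 3 weeks. At 6 weeks it was 2235, 2822 and 3027 CPM in WT and 4019, 4602 and 5106 CPM in KO. At 10 weeks it was 1916, 1988 and 2316 CPM in WT and 3077, 3420 and 3952 CPM in KO. The genotypes did not overlap at any age. Medians were lower at each later age in both, and the KO libraries at 6 weeks overlapped the WT libraries at 3 weeks. These sums were not tested.

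At 3 weeks 18 collagens were called higher in KO and 0 lower, where 8.65% of all genes tested were called higher and 6.68% lower, 15.3% in all. At an unadjusted p under 0.05 there was 1 lower collagen at that age by edgeR, and DESeq2 and limma voom also called 0 lower. Without replicate 1 of WT at 3 weeks, 11 were called. At 6 weeks 26 were higher and 4 lower (11.0% and 12.8% of all genes, 23.8% in either direction). At 10 weeks 22 were higher and 3 lower (14.6% and 14.7% of all genes, 29.3% in either direction). Of the 18, 30 and 25 calls, 11, 25 and 17 held in every fit that left out 1 library. The median log2 difference over the 38 was 0.52, 0.87 and 0.66 at the 3 ages, beside medians of 0.0015, 0.0042 and -0.031 over all genes tested. KO libraries all lay above WT libraries for 22, 29 and 22 collagens at 3, 6 and 10 weeks, and for 15.7%, 21.9% and 19.2% of all genes. They all lay below WT for 2, 5 and 3 collagens, and for 14.9%, 22.2% and 21.4% of all genes. In all, 35 of the 38 were called at 1 age or more, 14 were called higher at all 3 ages, and 0 were higher at one age and lower at another. The 14 were Col1a1, Col1a2, Col5a1, Col11a1, Col4a2 to Col4a5, Col8a1, Col8a2, Col9a2, Col15a1, Col6a1 and Col6a2. The 3 called at no age were Col7a1, Col9a3 and Col25a1. Shares of all genes for these counts across ages were not computed. Col9a2 and Col11a1 are among the genes called higher at each age, and Col28a1 at 6 weeks. Those 3 met the count rule through KO libraries alone. Col17a1, among those called lower at 6 weeks, met it through WT libraries alone.

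**Figure D1:**
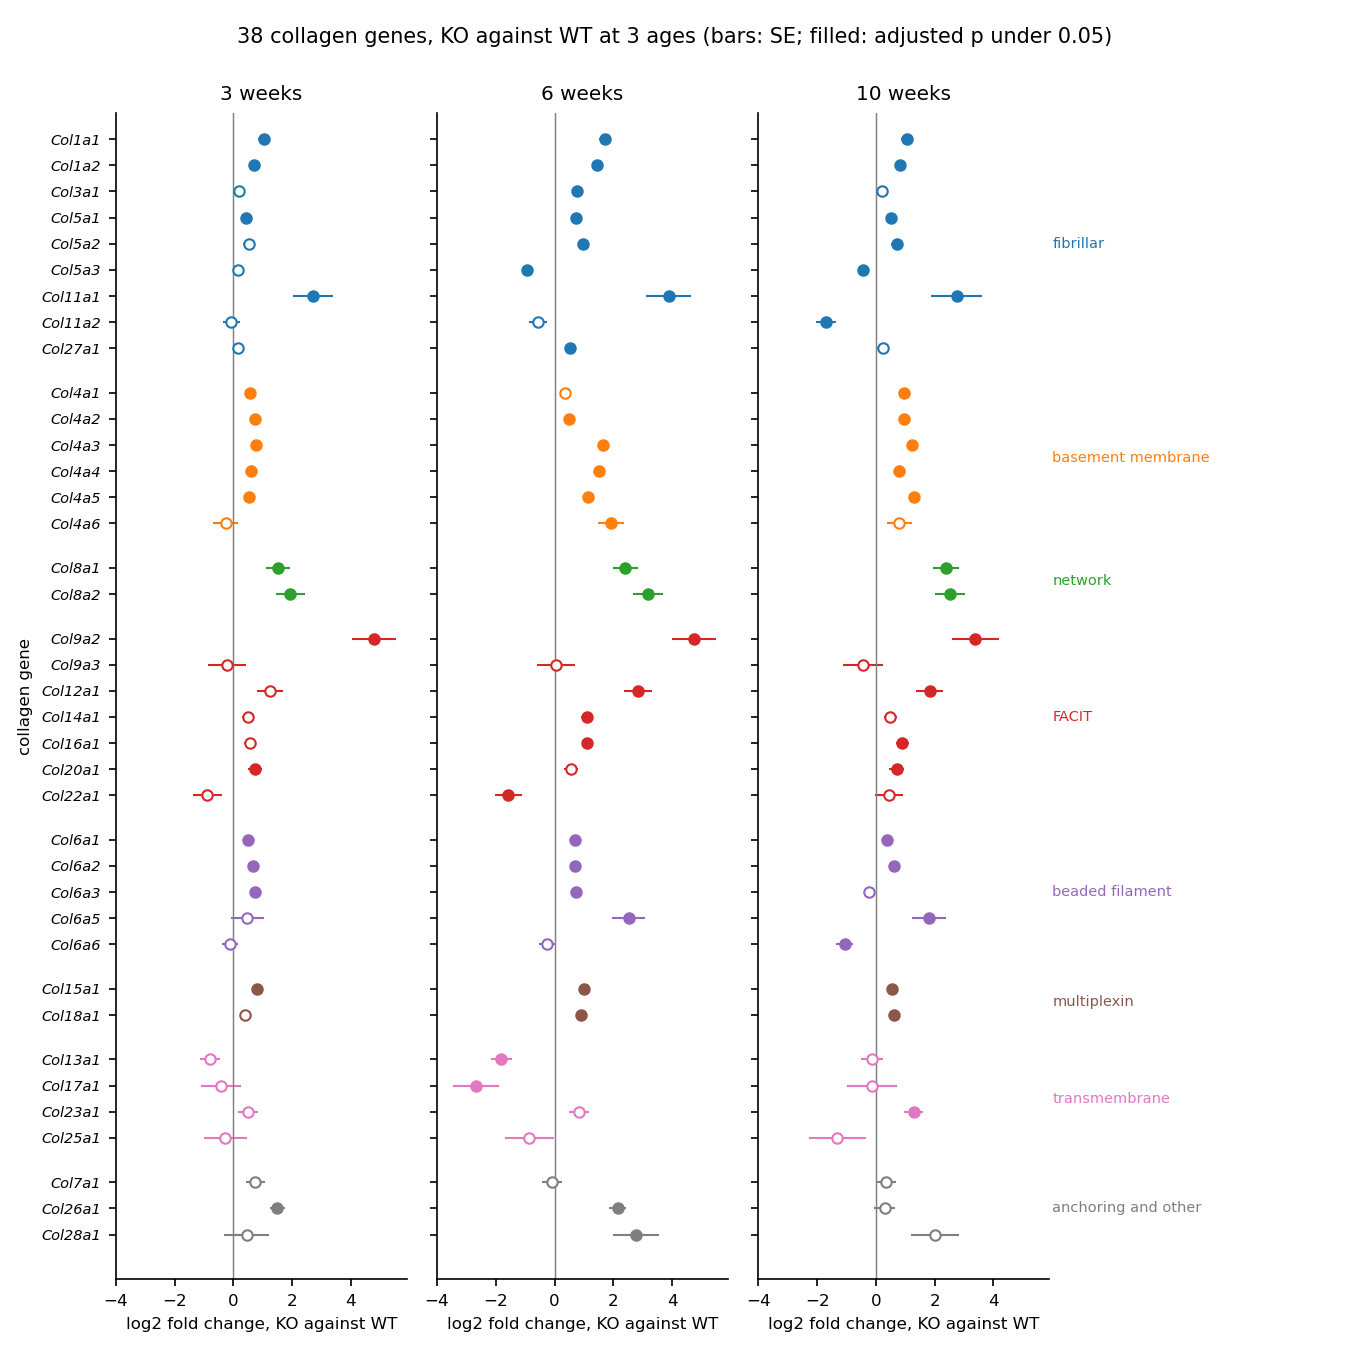
Log2 fold change of KO against WT (horizontal axis) for the 38 collagens, grouped by class, at 3, 6 and 10 weeks. Points are the fitted values, bars the SE, and filled points the genes called at an adjusted p under 0.05. Filled points lie right of 0 for 18, 26 and 22 genes and left of it for 0, 4 and 3.

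Marker genes of the cells that could hold this mRNA were read in the same way, and their counts stand beside 8.65%, 11.0% and 14.6% of all genes called higher and 6.68%, 12.8% and 14.7% called lower at 3, 6 and 10 weeks. The summed level of 10 fibroblast markers was lower in KO at 3 weeks (1353 to 1464 CPM, against 1588 to 1903 in WT), ran from 1952 to 2281 CPM in KO and from 1781 to 2061 in WT at 6 weeks, and from 1837 to 2185 and from 1664 to 1876 at 10 weeks. Of these 10, 0 were called higher and 3 lower at 3 weeks, 5 and 2 at 6 weeks, and 2 and 1 at 10 weeks. Of 8 endothelial markers 0, 0 and 1 were called higher in KO at the 3 ages and 0, 1 and 3 lower. Of 8 mural cell markers 1, 1 and 2 were higher and 2, 2 and 3 lower. Among genes of activated fibroblasts 2 of 7 tested were higher at 3 weeks and 4 of 7 at 6 and at 10 weeks, and 1 of 7 was lower at each age. The summed level of all 8 genes of the list was lower in KO at each age without overlap, at 557 to 633 CPM against 845 to 879 CPM, 303 to 338 against 387 to 463 CPM, and 218 to 357 against 499 to 766 CPM. The gene called lower was Acta2, smooth muscle actin, named here after its values were seen: at 6 weeks it was at 73.1 to 90.9 CPM in KO and 339 to 411 CPM in WT. Acta2 thus held most of the WT sum at 6 weeks, and the lower sum does not describe the other genes. At that age Cilp, Thbs4, Postn and Meox1 were called higher (log2 differences of 4.31, 2.34, 2.05 and 1.07), and Comp and Fap were not called. The sum without Acta2 was not computed. Markers of the epicardium and mesothelium were called higher in KO for 1, 0 and 6 of 8 genes at 3, 6 and 10 weeks. Their summed level was 32.4 to 54.3 CPM in KO and 16.4 to 25.4 CPM in WT at 3 weeks, overlapped at 6 weeks (26.6 to 40.6 against 14.8 to 41.6 CPM), and had medians of 58.8 and 19.4 CPM at 10 weeks with no overlap. The part of each of these in the collagen differences was not tested.

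Of the 9 fibrillar collagens, 4 were called higher in KO at 3 weeks, 7 at 6 weeks and 5 at 10 weeks, and 0, 1 and 2 were lower. For counts by class here and below, 8.65%, 11.0% and 14.6% of all genes were called higher at 3, 6 and 10 weeks. The shares called lower were 6.68%, 12.8% and 14.7%. Col1a1 (chr11:94936224-94953042, plus strand, GRCm38), the chain present in 2 copies in type I collagen, was at 176, 213 and 289.8 CPM in WT and 526, 509.5 and 373 CPM in KO at 3 weeks. The 6-week libraries were at 86.6, 141 and 136 CPM in WT and 317, 398 and 472 CPM in KO. At 10 weeks it was at 117, 126 and 101 CPM in WT and 214, 258 and 236 CPM in KO. Every KO library exceeded every WT library of the same age. The log2 differences were 1.05 (SE 0.21, adjusted p = 0.0021), 1.71 (SE 0.21, adjusted p = 1.3e-05) and 1.05 (SE 0.21, adjusted p = 0.00097). Col1a2, which encodes the other type I chain, was higher by 0.70, 1.46 and 0.83 (SE 0.15 at each age), with no overlap between genotypes.

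Col3a1, the single chain of type III collagen, was called at 6 weeks alone. At 3 weeks it was at 753, 706 and 766 CPM in WT and 893, 934 and 709 CPM in KO, and the groups overlapped (log2 difference 0.19, SE 0.16, adjusted p = 0.47). At 6 weeks it was at 284, 348 and 366 CPM in WT and 409, 562 and 742 CPM in KO, a called increase of 0.78 (SE 0.16, adjusted p = 0.0012). At 10 weeks WT libraries held 248, 212 and 203 CPM and KO libraries 257, 279.9 and 236 CPM, which again overlapped (0.22, SE 0.16, adjusted p = 0.33). The difference of the Col3a1 effect between ages was not called in the main fit. It was called from 3 to 6 and from 6 to 10 weeks with no filter on low counts.

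Per kilobase of exon, the ratio of Col3a1 to Col1a1 was 2.28 ± 0.55 in WT and 1.21 ± 0.07 in KO at 3 weeks (SD, n = 3 here and below). The 6-week ratio was 1.88 ± 0.28 in WT and 0.952 ± 0.095 in KO, and 1.30 ± 0.15 and 0.731 ± 0.067 at 10 weeks. The KO mean was 0.530, 0.505 and 0.563 of the WT mean, and no KO library reached the lowest WT library of its age. The mean ratio was lower at each later age in both genotypes. The WT libraries at 10 weeks (1.12 to 1.42) overlapped the KO libraries at 3 weeks (1.13 to 1.27). The ratio of Col1a1 to Col1a2 had WT means of 1.41, 1.31 and 1.43 at 3, 6 and 10 weeks, and KO means of 1.82, 1.56 and 1.66. The genotypes were apart at 3 and 6 weeks, where the highest WT libraries were at 1.63 and 1.37 and the lowest KO libraries at 1.67 and 1.46, and overlapped at 10 weeks. The size of the Col1a1 to Col1a2 ratio depends on the exon lengths used, 6563 bases for Col1a1 and 12426 for Col1a2. Without length scaling its means were 0.745, 0.689 and 0.757 in WT and 0.963, 0.825 and 0.876 in KO. So a scaled ratio above 1 does not show more Col1a1 than Col1a2 reads. These ratios were not tested.

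**Figure D2:**
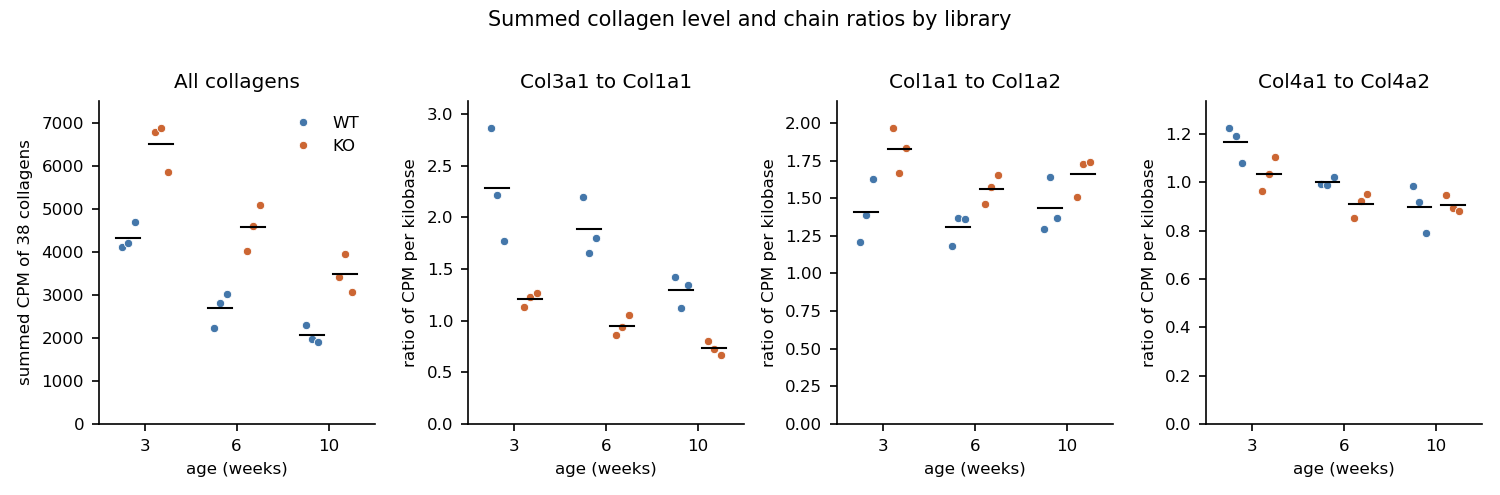
Summed collagen level (CPM) and 3 ratios of CPM per kilobase of exon (vertical axes, from 0) at 3, 6 and 10 weeks; each point is 1 library and each black line a group mean. KO lies above WT in the sum and below WT in Col3a1 to Col1a1 at every age, while Col4a1 to Col4a2 stays between 0.79 and 1.23 in all libraries.

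Type V collagen, which sets the diameter of type I fibrils, had 2 chains higher and 1 lower in KO. Col5a1 was higher in KO by 0.44, 0.73 and 0.51 at 3, 6 and 10 weeks (SE 0.14, 0.14 and 0.15), and Col5a2 by 0.98 and 0.71 at 6 and 10 weeks (SE 0.19 at both), with 0.52 (SE 0.19, adjusted p = 0.068) at 3 weeks. The Col5a1 call at 3 weeks was lost in 4 of the 6 fits without 1 library and with the compared groups alone, and that at 10 weeks without WT replicate 3. Col5a3 (chr9:20770050-20815067, minus strand) was at 100.3, 92.8 and 105 CPM in WT and 111, 99.8 and 119 CPM in KO at 3 weeks, overlapping. At 6 weeks WT libraries held 71.1, 67.5 and 76.7 CPM and KO libraries 32.0, 35.3 and 44.9 CPM. At 10 weeks the levels were 55.3, 51.8 and 43.0 CPM in WT and 36.8, 35.0 and 39.5 CPM in KO. Col5a3 was thus lower in KO at 6 weeks by a log2 difference of -0.94 (SE 0.12, adjusted p = 7.9e-06) and at 10 weeks by -0.43 (SE 0.12, adjusted p = 0.011), and the change of its genotype effect from 3 to 6 weeks was itself called (-1.08, SE 0.17, adjusted p = 0.0024). The 10-week call was lost without WT replicate 1 or KO replicate 2.

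Type XI collagen, a minor fibrillar type best known from cartilage, had one chain higher and the other lower. Col11a1 was near the limit of detection in WT (0 to 0.507 CPM over 9 libraries) and reached 1.66, 1.90 and 0.795 CPM in KO at 3 weeks, 1.90, 1.31 and 1.38 CPM at 6 weeks and 0.982, 0.604 and 0.350 CPM at 10 weeks. The fitted increases were 2.71 (SE 0.70), 3.88 (SE 0.77) and 2.75 (SE 0.88). Col11a1 met the count rule through KO libraries alone, so these increases are partly set by the rule. The call at 3 weeks was lost without WT replicate 1 or 2, and that at 10 weeks without WT replicate 2 or 3 or KO replicate 1, with the atrial-rich libraries left out, or with the compared groups alone. Col11a2 was lower in KO at 10 weeks, at 1.75, 0.665 and 1.46 CPM against 3.55, 5.82 and 3.25 CPM in WT (log2 difference -1.71, SE 0.33, adjusted p = 0.00054). Col27a1 was called higher at 6 weeks alone (0.53, SE 0.19, adjusted p = 0.042), and that call was lost without any of 5 of the 6 libraries or without the atrial-rich ones.

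Type IV collagen was the most abundant by length-scaled level in every group. Col4a1 and Col4a2, the chains of the common basement membrane trimer, together made 42.4% to 46.1% of the summed collagen level per kilobase in the WT groups (means), and 43.7%, 37.3% and 50.7% in KO at 3, 6 and 10 weeks. Per kilobase they ranked first and second in all 6 groups. Their ranges overlapped in 4 groups and were apart in WT at 3 weeks, where Col4a1 was higher, and in KO at 6 weeks, where Col4a2 was. Below them came Col3a1, Col6a1, Col15a1, Col1a1, Col6a2 and Col1a2 in orders that varied between groups, and many neighbours in those orders overlapped. These ranks and shares rest on the exon lengths used. In unscaled counts, WT libraries at 3 weeks held 15519, 14954 and 12086 of Col3a1 and 13978, 15742 and 13136 of Col4a2. In every library of the other groups Col4a2 had more counts than Col3a1. The same WT libraries held 4845, 4712 and 4098 counts of Col6a1 and 4379, 4683 and 4157 of Col6a2. KO libraries at 6 weeks held 13086, 16226 and 15732 counts of Col4a1 and 13602, 15613 and 14642 of Col4a2. In replicates 2 and 3 of that group Col4a1 thus had more counts, against the order per kilobase.

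Of the 6 basement membrane genes 5 were called higher in KO at each age: all but Col4a6 at 3 and 10 weeks and all but Col4a1 at 6 weeks. Col4a1 was at 939, 997 and 1013 CPM in WT and 1468, 1457 and 1433 CPM in KO at 3 weeks (log2 difference 0.56, SE 0.14, adjusted p = 0.0076). The 6-week levels were 511, 659.9 and 728 CPM in WT and 754, 815 and 871 CPM in KO, which were apart but not called (0.36, SE 0.14, adjusted p = 0.061). At 10 weeks it was at 535, 410.2 and 401 CPM in WT and 878, 1014 and 711 CPM in KO (0.95, SE 0.14, adjusted p = 2.2e-05). Col4a2 was higher by 0.73, 0.50 and 0.94 at the 3 ages (SE 0.13 at each), the 6-week call being lost without WT replicate 1.

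The chains of the second type IV trimer, Col4a3, Col4a4 and Col4a5, known from the kidney glomerulus and from Alport syndrome, were all higher in KO at all 3 ages. Col4a3 was at 7.14, 7.27 and 5.51 CPM in WT and 11.1, 11.5 and 11.6 CPM in KO at 3 weeks, and at 5.28, 6.41 and 5.46 CPM in WT and 18.7, 18.2 and 17.4 CPM in KO at 6 weeks. At 10 weeks it was at 3.99, 3.42 and 3.78 CPM in WT and 10.2, 7.31 and 8.70 CPM in KO. Its log2 differences were 0.77, 1.66 and 1.23 (SE 0.15, 0.15 and 0.16), those of Col4a4 0.59, 1.51 and 0.78 (SE 0.16, 0.16 and 0.17) and those of Col4a5 0.52, 1.14 and 1.31 (SE 0.12 at each age). The Col4a4 call at 3 weeks was lost without WT replicate 1, KO replicate 3 or the atrial-rich libraries. At 6 weeks these increases were 3.16-fold, 2.86-fold and 2.21-fold, and that of Col4a2 was 1.42-fold. Together the 3 chains made 2.06% to 3.02% of the summed collagen level per kilobase in the WT libraries and 1.99% to 2.33%, 3.33% to 4.49% and 3.20% to 3.42% in KO at 3, 6 and 10 weeks. Col4a6 was called higher at 6 weeks alone, where it was at 0.440, 0.940 and 1.10 CPM in WT and 2.19, 1.81 and 5.54 CPM in KO (1.92, SE 0.44, adjusted p = 0.0025). About 5.65% of the exon length of Col4a3 overlaps C430014B12Rik on the opposite strand, and the library kit is not stated to mark strand.

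Type IV genes lie in head-to-head pairs that are transcribed away from each other, and the stretches between their starts are shown because both genes of the first 2 pairs were higher in KO at 3 and 10 weeks. The gap of 71 bases between Col4a4 (minus strand) and Col4a3 (plus strand) is chr1:82586850-82586920, the starts of Col4a1 (minus) and Col4a2 (plus) overlap by 22 bases at chr8:11312805-11312826, and Col4a6 and Col4a5 on chromosome X are 1308 bases apart. Sequences here and below are plus strand or gene strand of GRCm38.p6, 5′ to 3′, with gene starts from GENCODE M21.
Col4a4-Col4a3 gap: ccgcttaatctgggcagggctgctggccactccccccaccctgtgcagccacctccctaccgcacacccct
Col4a1-Col4a2 overlap: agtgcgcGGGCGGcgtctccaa
Both are given on the plus strand, with GC boxes (GGGCGG on either strand) in capitals. The overlap holds 1 GC box and the gap none.

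Type VIII collagen, the network type of vessel walls and of remodelling tissue, had both chains higher in KO at all 3 ages. Col8a1 (chr16:57624258-57754737, minus strand) was at 20.4, 17.3 and 18.7 CPM in WT and 28.9, 103 and 30.0 CPM in KO at 3 weeks. At 6 weeks it was at 12.4, 15.3 and 13.4 CPM in WT and 84.9, 65.1 and 67.7 CPM in KO. At 10 weeks it was at 11.0, 9.97 and 7.09 CPM in WT and 56.1, 58.8 and 31.7 CPM in KO. All KO libraries were above all WT libraries of their age, and replicate 2 stood far above the other KO libraries at 3 weeks. The log2 differences were 1.52 (SE 0.42, adjusted p = 0.027), 2.40 (SE 0.43, adjusted p = 0.0011) and 2.38 (SE 0.44, adjusted p = 0.0012). Replicate 2 of KO at 3 weeks also held the most Col9a2, Col12a1 and Postn (215 CPM) of its group. Without it, the difference at 3 weeks was 0.65 with an adjusted p of 0.058, and the call was also lost without any 1 WT library or with the compared groups alone.

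Col8a2 (chr4:126286793-126314330, plus strand) was at 0.486, 0.519 and 1.08 CPM in WT and 1.93, 4.82 and 1.17 CPM in KO at 3 weeks. At 6 weeks it was at 0.440, 0.385 and 0.420 CPM in WT and 4.26, 3.52 and 3.66 CPM in KO, and at 10 weeks at 0.740, 0.504 and 0.291 CPM in WT and 3.02, 4.47 and 1.52 CPM in KO. The genotypes were apart at each age, by 1.94 (SE 0.49), 3.18 (SE 0.51) and 2.52 (SE 0.51) on the log2 scale. As for Col8a1, replicate 2 was the highest KO library at 3 weeks, and that call was lost without it or without WT replicate 1 or 2. The network class made means of 0.665%, 0.763% and 0.687% of the summed collagen level per kilobase in WT and 1.24%, 2.49% and 2.10% in KO. At 3 weeks the KO libraries were at 0.665%, 2.28% and 0.770% and the WT libraries at 0.751%, 0.623% and 0.622%, which overlapped. The genotypes were apart at 6 weeks (2.07% to 3.21% in KO, 0.658% to 0.827% in WT) and at 10 weeks (1.55% to 2.48% and 0.557% to 0.763%).

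Among the FACIT collagens, 2 were called higher in KO at 3 weeks, 4 at 6 weeks and 4 at 10 weeks, and 1 was lower at 6 weeks. Col9a2 (chr4:121039385-121055322, plus strand), a chain of the type IX collagen of cartilage fibrils, had the largest log2 increase of the 38 at each age. It met the count rule through KO libraries alone, so this rank and difference are partly set by the rule. It was at 0.0944 to 0.570 CPM over the 9 WT libraries, and in KO at 5.12, 14.7 and 1.40 CPM at 3 weeks, 8.47, 7.89 and 5.65 CPM at 6 weeks and 2.81, 3.02 and 2.28 CPM at 10 weeks. The lowest KO library was above the highest WT library. The log2 differences were 4.78 (SE 0.76, adjusted p = 0.00053), 4.76 (SE 0.75, adjusted p = 0.00021) and 3.38 (SE 0.80, adjusted p = 0.0046), and each call held without any 1 library; at 3 weeks it was lost when the fit held the compared groups alone. Of its partner chains, Col9a3 was at 0.058 to 0.912 CPM over all 18 libraries and was not called at any age, and Col9a1 did not meet the count rule. Of 8 cartilage markers Acan, Matn1, Matn3, Hapln1 and Snorc were at or near 0 (at most 0.504 CPM) in every library and 3 of the 8 were tested. Of these 3, Sox9 was called higher in KO at 6 weeks (0.85, SE 0.28, adjusted p = 0.032) and at 10 weeks (0.86, SE 0.29, adjusted p = 0.031), where its groups overlapped. Cnmd was called lower at 10 weeks (-2.11, SE 0.42, adjusted p = 0.00059). Comp was not called at any age, and no call was made at 3 weeks. The summed level of the 8 overlapped between genotypes at 3 weeks (means of 6.13 CPM in KO and 6.17 CPM in WT) and at 10 weeks (9.51 to 11.2 CPM in KO and 8.73 to 13.4 CPM in WT). At 6 weeks it ran from 8.47 to 13.5 CPM in KO and from 6.72 to 7.15 CPM in WT.

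Col12a1, a FACIT collagen abundant in tendon, was at 1.80, 1.56 and 2.34 CPM in WT and 3.06, 8.23 and 2.34 CPM in KO at 3 weeks, which overlapped (log2 difference 1.25, SE 0.43, adjusted p = 0.055). At 6 weeks it was at 0.660, 0.684 and 0.630 CPM in WT and 5.82, 4.77 and 3.60 CPM in KO (2.83, SE 0.48, adjusted p = 0.00022), and at 10 weeks at 1.78, 0.840 and 0.523 CPM in WT and 2.46, 5.50 and 3.39 CPM in KO (1.83, SE 0.46, adjusted p = 0.0055). Col14a1, a related FACIT collagen, was called higher at 6 weeks alone (1.11, SE 0.21), with 0.50 (adjusted p = 0.11) at 3 weeks and 0.49 (adjusted p = 0.098) at 10 weeks. Col16a1 was higher at 6 and 10 weeks by 1.12 and 0.90. Col20a1 was called at 3 and 10 weeks (0.73 and 0.70), but both calls were lost without any of 5 of the 6 libraries. The 3-week call was also lost with the replicate block, with other size factors, without mitochondrial genes, without the atrial-rich libraries and with the compared groups alone, and the 10-week call with limma voom and under the last 2 of these. Col22a1, a collagen of muscle and tendon junctions, was lower in KO at 6 weeks, at 0.403, 0.703 and 1.38 CPM against 1.54, 2.95 and 2.94 CPM (log2 difference -1.57, SE 0.47, adjusted p = 0.016), a call lost without any of 4 of the 6 libraries.

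**Figure D3:**
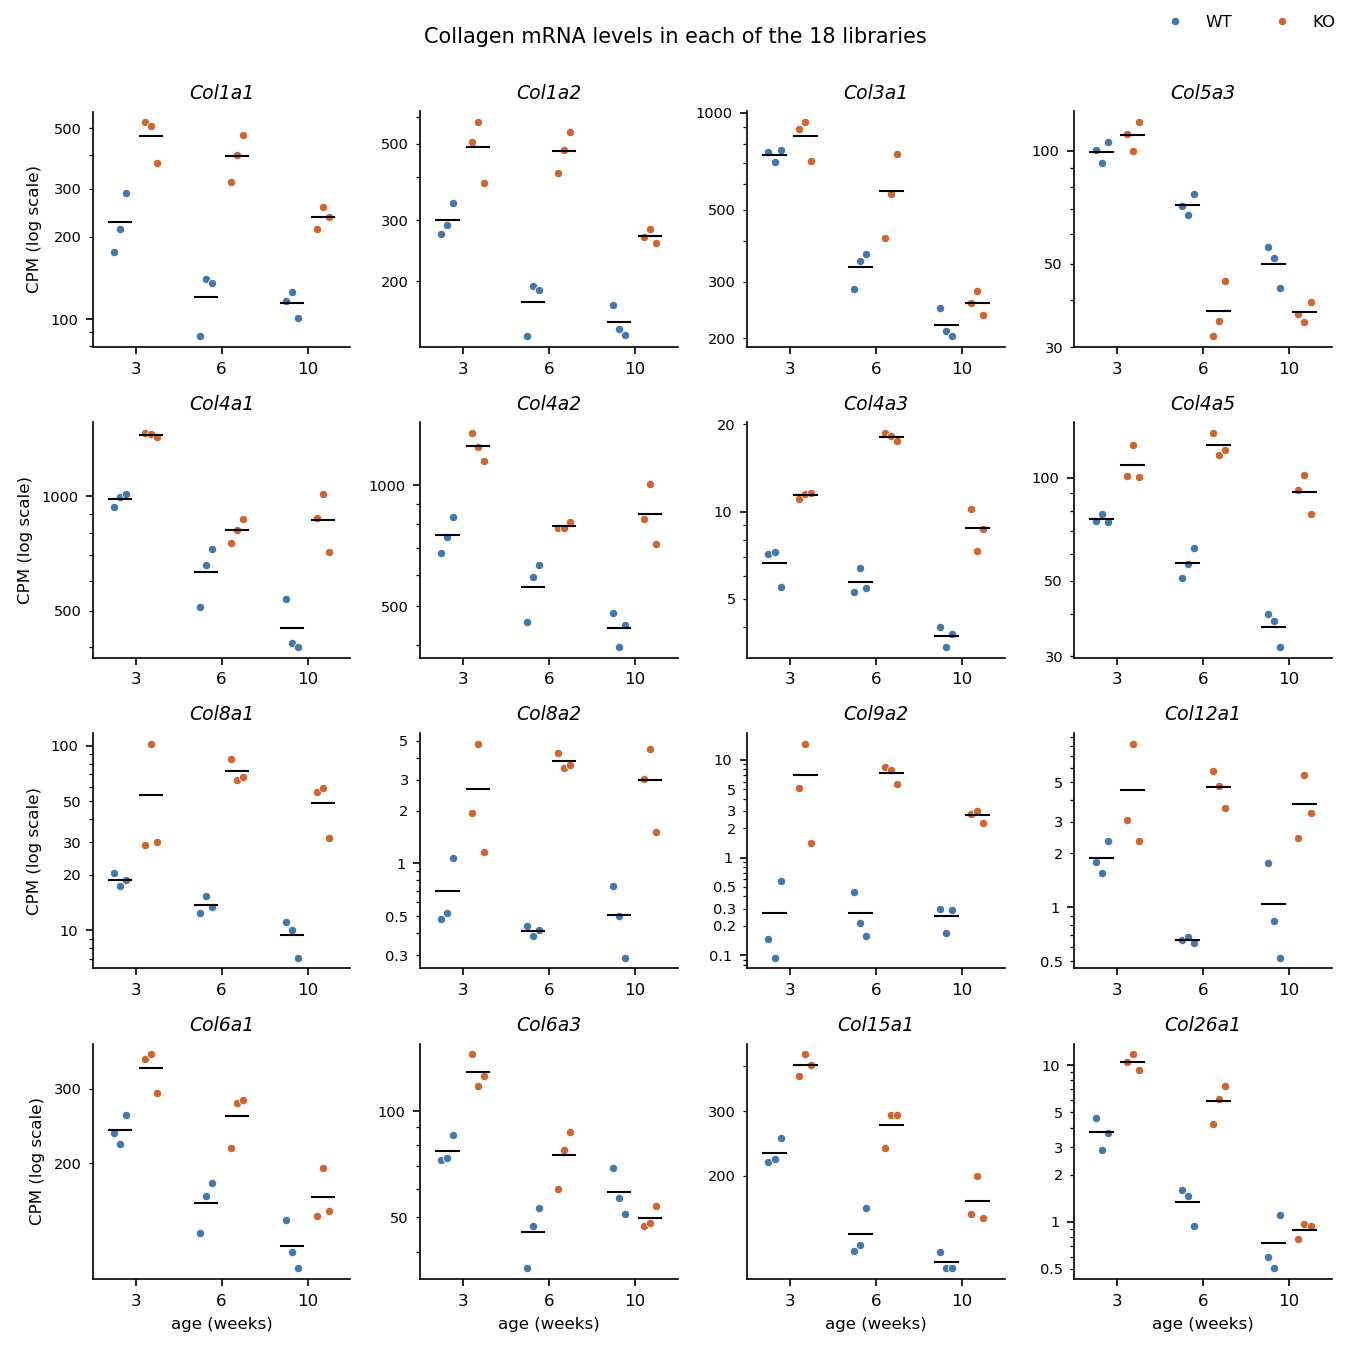
Levels of 16 collagens in each library (CPM, log axis, a separate scale in each panel) at 3, 6 and 10 weeks of age. Blue points are WT, orange points KO and black lines group means. KO lies wholly above WT at all 3 ages for Col1a1, Col4a1, Col8a1 and Col9a2, overlaps it for Col3a1 at 3 and 10 weeks, and lies below it for Col5a3 at 6 and 10 weeks.

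The stretches upstream of 4 genes are shown, 3 with the largest changes in their classes and Col3a1 for contrast. They are the 120 bases before the start, or the 69 that lie outside annotated exons for Col9a2, on the gene's strand, with matches to the TATA box (TATAAA), the CCAAT box (CCAAT), the GC box (GGGCGG), the TEAD motif (CATTCC) and the AP-1 motif (TGANTCA), on either strand, in capitals; matches may overlap.
Col8a1 (chr16:57754738-57754857): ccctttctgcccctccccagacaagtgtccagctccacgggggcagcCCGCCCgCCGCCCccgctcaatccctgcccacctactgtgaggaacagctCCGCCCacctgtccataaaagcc
Col8a2 (chr4:126286673-126286792): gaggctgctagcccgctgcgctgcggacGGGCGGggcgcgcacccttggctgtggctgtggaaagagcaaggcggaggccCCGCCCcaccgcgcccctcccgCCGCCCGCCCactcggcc
Col9a2 (chr4:121039316-121039384): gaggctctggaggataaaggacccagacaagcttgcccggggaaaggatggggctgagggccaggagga
Col3a1 (chr1:45311418-45311537): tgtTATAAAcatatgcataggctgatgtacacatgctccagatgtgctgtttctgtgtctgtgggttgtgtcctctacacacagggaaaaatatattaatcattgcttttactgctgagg
Both type VIII genes hold GC boxes here, Col3a1 holds a TATA box, and none of these 5 motifs is in the shorter stretch of 69 bases shown for Col9a2.

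RefSeq start windows of 300 bases (250 before and 50 after the start) were at hand for 30 of the 38 collagens, in 32 windows. A GC box was in 22 of the 32 (68.8%), beside 46.2% of 21263 windows of protein-coding genes and 35.7% of all 32851 windows. Col9a2 was among the genes with a GC box in this longer window. The TATA box was in 12.5% of collagen windows (12.6% of protein-coding windows), the CCAAT box in 34.4% (38.2%), the TEAD motif in 15.6% (13.6%), the AP-1 motif in 3.12% (6.99%), the SMAD motif CAGACA in 28.1% (18.9%) and the E-box CANNTG in 53.1% (69.0%). The SMAD motif and the E-box were not marked in the stretches above. These shares were not tested, and a match of letters is not a bound site.

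Of the 5 beaded filament genes 3 were called higher at 3 weeks, 4 at 6 weeks and 3 at 10 weeks, and 1 was lower at 10 weeks. Col6a1 and Col6a2, 2 chains of the type VI trimer around cells, were higher at each age, by 0.49, 0.68 and 0.38 (SE 0.14 at each) and by 0.66, 0.70 and 0.61 (SE 0.14 at each). The Col6a1 call was lost in 4 of 6 fits without 1 library at 3 weeks and in 3 of 6 at 10 weeks, where it was also lost with the compared groups alone. The third chain, Col6a3 (chr1:90765923-90843971, minus strand), was at 72.9, 73.5 and 85.6 CPM in WT and 145, 118 and 126 CPM in KO at 3 weeks, and at 35.8, 47.3 and 53.0 CPM in WT and 60.2, 77.5 and 87.5 CPM in KO at 6 weeks. At 10 weeks it was at 69.0, 56.8 and 51.1 CPM in WT and 47.2, 48.3 and 53.9 CPM in KO, which overlapped. It was higher by 0.75 and 0.73 at 3 and 6 weeks (SE 0.15 at both) and stood at -0.24 (SE 0.15, adjusted p = 0.24) at 10 weeks. Of the less common chains, Col6a5 was higher at 6 and 10 weeks by 2.52 and 1.81, and Col6a6 was lower at 10 weeks, at 7.30, 6.11 and 10.9 CPM against 18.5, 17.98 and 14.1 CPM (log2 difference -1.06, SE 0.29, adjusted p = 0.012). At 10 weeks the Col6a5 call was lost in 4 of 6 fits without 1 library, and the Col6a6 call without KO replicate 1 or 2.

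The multiplexins of basement membrane zones, whose cleaved ends include endostatin, were higher too. Col15a1 was at 218, 222 and 253 CPM in WT and 374, 430.0 and 402 CPM in KO at 3 weeks, at 125, 129 and 163 CPM against 239, 294 and 293 CPM at 6 weeks, and at 124, 112 and 112 CPM against 158, 199.8 and 154 CPM at 10 weeks. No KO library overlapped WT, and the differences were 0.80, 0.98 and 0.55 (SE 0.12 at each). Col18a1 was higher at 6 and 10 weeks, by 0.91 and 0.62, with 0.41 (SE 0.17, adjusted p = 0.11) at 3 weeks; the 10-week call was lost without WT replicate 3 or the atrial-rich libraries.

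All 4 transmembrane collagens missed the threshold at 3 weeks. At 6 weeks Col13a1, found at neuromuscular junctions and focal contacts, was lower in KO at 0.576, 1.05 and 1.22 CPM against 3.52, 3.63 and 2.94 CPM (log2 difference -1.81, SE 0.35, adjusted p = 0.00054). Col17a1, a hemidesmosome collagen, was lower at 0.115, 0.201 and 0.0554 CPM against 1.04, 0.812 and 0.682 CPM (-2.68, SE 0.78, adjusted p = 0.015), a call lost without WT replicate 1 or KO replicate 1 or 3. At 10 weeks Col23a1 alone was higher (1.28, SE 0.33, adjusted p = 0.0052). Of the remaining types, Col26a1 was at 4.61, 2.88 and 3.67 CPM in WT and 10.5, 11.8 and 9.35 CPM in KO at 3 weeks and at 1.59, 1.45 and 0.944 CPM against 4.21, 6.08 and 7.42 CPM at 6 weeks, and the groups overlapped at 10 weeks (0.592, 0.504 and 1.10 against 0.772, 0.967 and 0.934 CPM). Its differences were 1.5 (SE 0.25), 2.14 (SE 0.28) and 0.30 (SE 0.36, adjusted p = 0.59). Col28a1 was higher at 6 weeks alone (2.76, SE 0.79, adjusted p = 0.013), from 0.055 to 0.157 CPM to 0.603 to 1.05 CPM, a call lost without WT replicate 1. Col17a1 met the count rule through WT libraries alone and Col28a1 through KO libraries alone. The differences of both are thus partly set by the rule.

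Within each genotype, nearly all collagens called between ages were lower at the later age. In WT from 3 to 6 weeks 15 of 38 collagens were called lower and 0 higher (2.24% and 2.94% of all genes, 5.18% in all), with a median log2 change of -0.54. The largest falls were those of Col26a1 (-1.48), Col3a1 (-1.16), Col14a1 (-0.93) and Col1a1 (-0.90). That count was 6 without replicate 1 of WT at 6 weeks, and 9 and 8 without replicates 1 and 2 of WT at 3 weeks. In WT from 6 to 10 weeks 6 were lower and 0 higher (5.12% and 3.64% of all genes, 8.77% in all): Col13a1 (-1.30), Col4a5 (-0.62), Col4a3 (-0.62), Col3a1 (-0.59), Col5a3 (-0.52) and Col4a1 (-0.50). At an unadjusted p under 0.05, edgeR gave 2 higher collagens from 3 to 6 weeks and 1 from 6 to 10 weeks, and DESeq2 and limma voom called 0 higher in either. The count of 6 became 1 without replicate 3 of WT at 10 weeks, 2 without replicate 2 or 3 of WT at 6 weeks and 3 without replicate 2 of WT at 10 weeks.

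In KO from 3 to 6 weeks 9 were lower and 1 higher (6.25% and 5.34% of all genes, 11.6% in all). The one that rose was Col4a3 (0.67), and the largest falls were those of Col5a3 (-1.56), Col4a1 (-0.84), Col26a1 (-0.84) and Col6a3 (-0.79). Without replicate 1 of KO at 6 weeks 5 were called, and without replicate 1 of KO at 3 weeks 6. In KO from 6 to 10 weeks 15 were lower and 0 higher (6.14% and 6.52% of all genes, 12.7% in all), with a median change of -0.58, led by Col26a1 (-2.71), Col14a1 (-1.16), Col3a1 (-1.15) and Col4a3 (-1.05). At an unadjusted p under 0.05, edgeR also gave 0 higher, and DESeq2 and limma voom called 0. Without the atrial-rich libraries 10 were lower. Col4a1 and Col4a2 were not among these 15, and the share of the basement membrane class in the summed level per kilobase went from 41.2% ± 3.12 in KO at 6 weeks to 54.1% ± 2.20 at 10 weeks, and in WT from 48.9% ± 0.676 to 47.4% ± 2.12.

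Of the calls between ages, 6 of 15 and 1 of 6 in WT and 5 of 10 and 9 of 15 in KO held in every fit that left out 1 library.

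Whether the genotype effect itself changed with age was tested for each pair of ages. From 3 to 6 weeks it grew for Col4a4 (0.92, SE 0.23) and Col4a3 (0.89, SE 0.22) and fell for Col5a3 (-1.08), 3 of 38 where 1.59% of all genes were called (0.494% higher and 1.10% lower). From 6 to 10 weeks it fell for Col26a1 (-1.84, SE 0.46) and Col6a3 (-0.97, SE 0.21), 2 of 38 where 5.75% of all genes were called (3.12% higher and 2.63% lower). From 3 to 10 weeks it grew for Col4a5 (0.79, SE 0.17) and fell for Col6a3 (-0.99, SE 0.21) and Col11a2 (-1.65, SE 0.45), 3 of 38 against 5.76% of all genes (2.82% higher and 2.94% lower). The counts from 6 to 10 and from 3 to 10 weeks were near these shares. For the other collagens, including Col1a1, Col8a1 and Col9a2, no change of the effect between ages was called in this fit. With no filter on low counts, Col1a1 was called from 3 to 6 and from 6 to 10 weeks. Col8a1 was then called from 3 to 6 and from 3 to 10 weeks. The 3 tests share libraries.

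Genes that act on collagen were read from 5 lists, whose counts stand beside the shares of all genes called higher (8.65%, 11.0% and 14.6%) and lower (6.68%, 12.8% and 14.7%) at 3, 6 and 10 weeks. Of 22 genes for chain modification and folding, 7 were higher and 3 lower in KO at 3 weeks, 8 and 3 at 6 weeks, and 8 and 4 at 10 weeks. P3h2, a prolyl 3-hydroxylase that acts on type IV collagen, was at 3.44 to 5.38 CPM over the 9 WT libraries and rose to 17.9, 19.0 and 10.3 CPM in KO at 3 weeks, 38.0, 30.7 and 31.8 CPM at 6 weeks and 38.7, 67.3 and 54.9 CPM at 10 weeks. The log2 differences were 1.88, 2.96 and 3.58 (SE 0.23 at each). P4ha1, a subunit of the prolyl 4-hydroxylase that stabilises the helix, was higher by 0.40, 1.02 and 1.01. The collagen chaperone Fkbp10 was higher by 0.83 and 0.89 at 3 and 6 weeks, and the lysyl hydroxylase Plod1 by 0.47 and 0.38 at 3 and 6 weeks. Kdelr3 was higher by 1.03 at 10 weeks. Lower were the endoplasmic reticulum channel Tmem38b (-0.68, -0.31 and -0.33), P3h4 at 6 and 10 weeks (-0.43 and -0.84), the export factor Mia2 at 3 and 10 weeks (-0.46 and -0.48), the collagen galactosyltransferase Colgalt2 at 3 and 10 weeks (-0.61 and -0.56) and Crtap at 6 weeks (-0.43).

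Of 14 genes for procollagen trimming and cross-linking, 4 were higher and 0 lower at 3 weeks, 10 and 1 at 6 weeks, and 8 and 1 at 10 weeks. Lox, the lysyl oxidase that starts covalent cross-links, was higher by 1.47, 1.38 and 1.90 at the 3 ages, and its relative Loxl1 by 0.66, 0.88 and 0.59. The transglutaminase Tgm2 was higher by 0.75 and 1.32 at 3 and 10 weeks, and Loxl2 by 0.66 and 0.91 at 6 and 10 weeks. At 6 weeks the procollagen peptidase Adamts2 (1.03), the procollagen C-proteinase enhancer Pcolce (0.82) and Loxl4 (1.94) had the smallest p. Lower were Adamts14 at 6 weeks (-1.39) and Adamts3 at 10 weeks (-1.65), both procollagen peptidases.

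Of 13 genes for fibril-binding proteins, 2 were higher and 1 lower at 3 weeks, 8 and 2 at 6 weeks, and 3 and 2 at 10 weeks. The proteoglycan Bgn was higher by 1.06, 2.04 and 1.67, and fibronectin (Fn1) by 0.90 and 1.01 at 3 and 6 weeks. Lumican (Lum) was higher by 1.15 and decorin (Dcn) by 0.57 at 6 weeks, fibromodulin (Fmod) by 2.52 and 3.13 and periostin (Postn) by 2.05 and 1.32 at 6 and 10 weeks. Dcn, Lum, Dpt and Postn also stand in the fibroblast marker lists. Dpt, which binds decorin and collagen, was lower by log2 differences of -0.79, -0.91 and -0.73, and Thbs2 of -0.69 and -1.02 at 6 and 10 weeks. Of 9 receptor genes tested, 2, 4 and 3 were higher and 0, 0 and 2 lower. The uptake receptor Mrc2 was higher by 0.86, 1.22 and 0.70 and the receptor kinase Ddr1 by 0.50, 0.72 and 1.07, the integrin chain Itga11 by 1.36 at 6 weeks and Itgb1 by 0.59 and 0.78 at 6 and 10 weeks. At 10 weeks Itga10 (-1.10) and Ddr2 (-0.47) were lower.

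Of 11 tested genes for collagen-degrading enzymes and their inhibitors, 1 was higher and 2 lower at 3 weeks, 3 and 1 at 6 weeks, and 4 and 0 at 10 weeks. The membrane-bound collagenase Mmp14 was higher by 0.76, 0.67 and 0.64, cathepsin K (Ctsk) by 1.14 and 0.96 at 6 and 10 weeks, and the gelatinase Mmp2 by 0.71 at 6 weeks. At 10 weeks the inhibitor Timp1 was higher by 3.40 and the stromelysin Mmp3 by 2.28. Lower were Mmp13 (-1.35) and Timp2 (-0.40) at 3 weeks and Timp4 (-2.47) at 6 weeks.

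**Figure D4:**
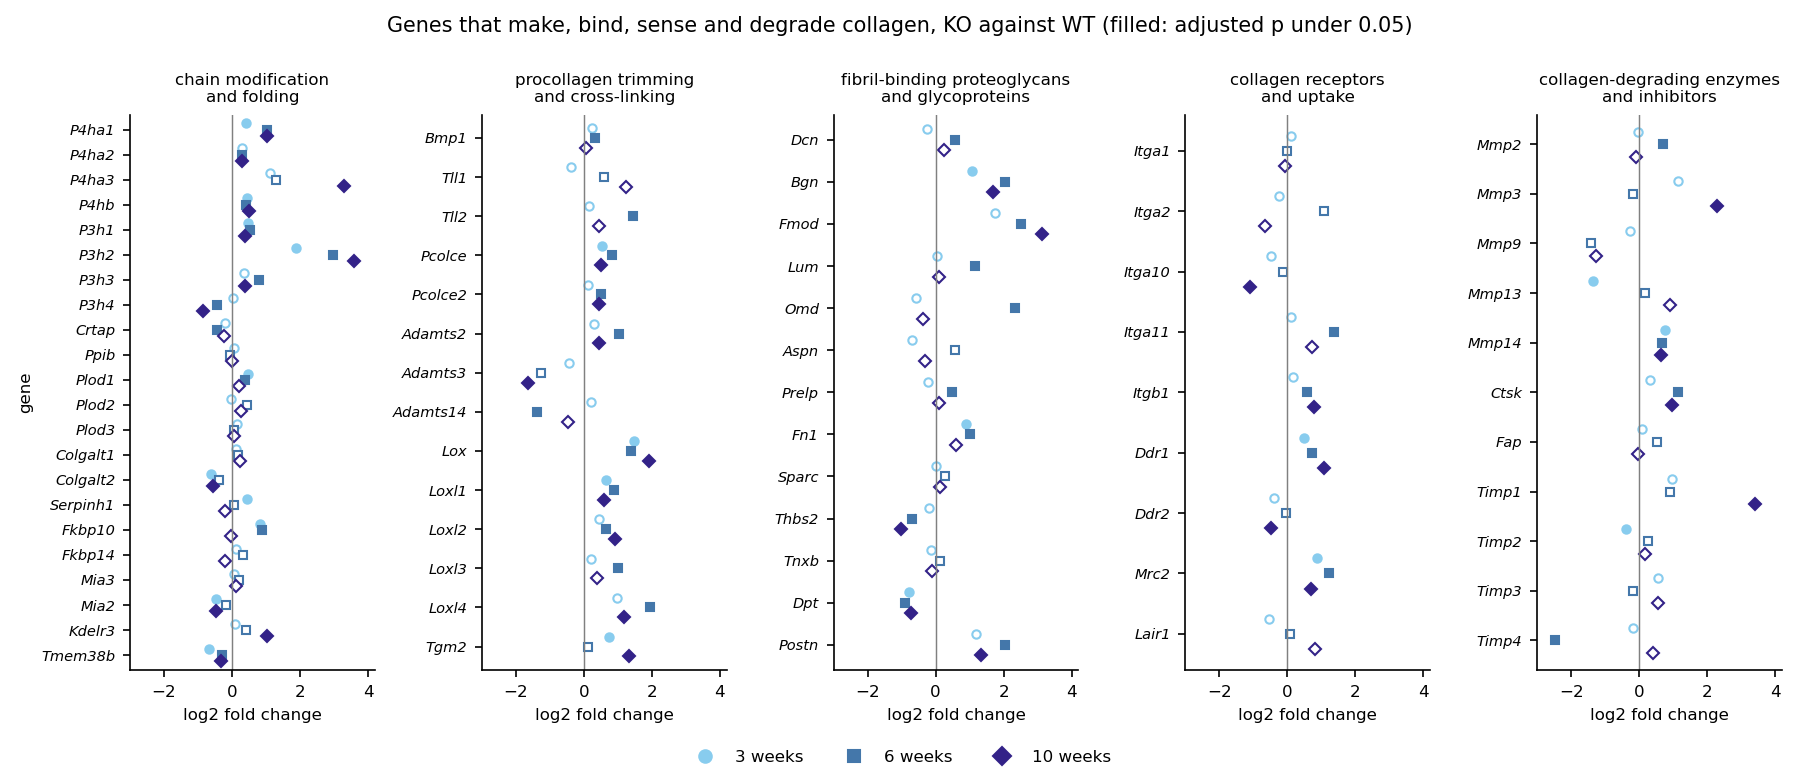
Log2 fold change of KO against WT (horizontal axis) for tested genes of the 5 lists, with circles at 3, squares at 6 and diamonds at 10 weeks; filled symbols were called at an adjusted p under 0.05. P3h2 lies at 1.88, 2.96 and 3.58, the highest of the first panel at each age, and Timp4 at -2.47 at 6 weeks is the lowest of the fifth.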

How the data were processed

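Ventricular RNA was extracted with the RNeasy Plus Universal Mini kit and made into libraries with the NEBNext Ultra II RNA kit, per the labels' protocols. Per the submitters' processing notes, the tools were Trimmomatic 0.36, STAR 2.5.2b and featureCounts of Subread 1.5.2, with the GRCm38 build; the strand setting, annotation release and treatment of reads with several matches are not given in the sources used here. Raw counts were what the authors deposited, per Ensembl gene for each of the 18 libraries. Symbols came from GENCODE M21, which matched 49056 identifiers and left 259 unmatched.

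Counts were fitted with edgeR 4.0.16 in R 4.3.3 (quasi-likelihood test, robust, TMM scaling, filterByExpr at 10 counts and a total of 15) in 1 model of 6 groups, which left 15778 genes. The SE is the absolute log2 fold change over the square root of F. The 10 contrasts compared genotypes at each age, the genotype effect between ages, and ages within a genotype. Alternatives were DESeq2 1.42.0, limma 3.58.1 voom, other size factors, no filter, no mitochondrial genes, the compared groups alone, a replicate block, no atrial-rich libraries and each library left out. On data simulated for the 10-week comparison with 15415 genes, 27.9%, 63.6% and 81.4% of genes changed 1.5-fold, 2-fold and 4-fold were recovered. The simulation had 112 calls in all, against 4625 in the data at 10 weeks. With so few changed genes the adjustment was stricter, so these rates do not describe the test on the data.

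The members and gene lists were chosen with earlier results of these data known. Values per library are printed for the common chains and the 5 largest called changes per direction and genotype comparison that averaged at least 0.5 CPM in the higher group. For age comparisons the 4 largest calls per direction are named, and of each pathway list up to 3 called genes per direction with the smallest p.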

Additional observations from a re-analysis of the deposited data

Results flagged for a closer look

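For 7 collagens the genotype effect differed between ages by a test of the difference itself, in edgeR's quasi-likelihood fit with Benjamini-Hochberg adjustment over all genes. The counts were 3, 2 and 3 of 38 collagens from 3 to 6, 6 to 10 and 3 to 10 weeks, where 1.59%, 5.75% and 5.76% of all genes were called, so that the last 2 counts were near the share over all genes. From 3 to 6 weeks the log2 difference between KO and WT changed by -1.08 for Col5a3 (adjusted p = 0.0024), a call kept in all 12 fits that left out 1 library. It changed by 0.92 for Col4a4 (adjusted p = 0.040) and by 0.89 for Col4a3 (adjusted p = 0.040), calls kept in 2 and 3 of 12 such fits; that of Col4a3 was also lost without the atrial-rich libraries.

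From 6 to 10 weeks it changed by -0.97 for Col6a3 (adjusted p = 0.0091), kept in 12 of 12 fits, and by -1.84 for Col26a1 (adjusted p = 0.022), kept in 9 of 12; both calls were lost without the atrial-rich libraries, and that of Col26a1 also with limma voom. From 3 to 10 weeks it changed by 0.79 for Col4a5 (adjusted p = 0.0075) and by -0.99 for Col6a3 (adjusted p = 0.0071), each kept in 12 of 12 fits, and by -1.65 for Col11a2 (adjusted p = 0.034), kept in 7 of 12 and lost with the compared groups alone.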

How the results depend on the processing

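For 63 genotype differences of collagens that were recomputed under each alternative, 820 values kept their direction and side of the threshold, 44 lost the call, 17 gained one and 0 changed direction; pathway genes, marker genes and changes between ages were not among them. Counts of collagens called between genotypes ran from 15 to 22 at 3 weeks, 29 to 32 at 6 weeks and 22 to 26 at 10 weeks over the alternatives that kept every library or left out the atrial-rich ones, against 18, 30 and 25. Leaving out each library in turn gave 11 to 19, 26 to 29 and 19 to 26. For the changes of the genotype effect, leaving out each library gave 1 to 6 calls from 3 to 6 weeks, 1 to 4 from 6 to 10 weeks and 2 to 6 from 3 to 10 weeks; DESeq2 gave 6 and 7 for the first 2 of these, limma voom gave 1 for the second, and no filter on low counts gave 11, 10 and 6. Between ages, leaving out each library gave 6 to 12 calls in WT from 3 to 6 weeks, 1 to 6 in WT from 6 to 10 weeks, 5 to 10 in KO from 3 to 6 weeks and 10 to 15 in KO from 6 to 10 weeks. In WT from 6 to 10 weeks both no filter and the compared groups alone gave 11. The cause was not tested. Col11a1, Col17a1 and Col28a1 rest on few counts (at most 38, 20 and 19 in any library). The SE of their genotype differences ran from 0.69 to 0.88.

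Same-numbered WT and KO libraries of an age had correlations of deviations between -0.084 and 0.085, and differently numbered ones between -0.091 and 0.125. With 3 libraries per group, these values cannot decide whether the replicate numbers mark a pairing. With a replicate block the counts were 17, 30 and 25 between genotypes at 3, 6 and 10 weeks (Col20a1 being lost at 3 weeks), 3, 2 and 4 for the changes of the effect, and 15, 6, 10 and 15 between ages.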
